A study of Rattus norvegicus with 16 samples.

Results

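The microRNAs miR-196a, miR-10a-5p and miR-10b are encoded inside the Hox gene clusters, and they were 3 of the 677 miRNAs on the array. They were selected by name with the earlier result known that miR-196a was lower in old than in young muscle in both muscles studied, so their age differences are given here as a description with no test. Each had a pair of probes on the array, and all 3 were bright enough to be among the 114 miRNAs tested. MicroRNA abundance was measured in hindlimb muscle of male Fischer 344 rats with single-colour Agilent arrays, 1 array per sample. The 16 arrays formed 4 groups of 4, which were young EDL, old EDL, young soleus and old soleus. Young rats were 6 to 7 months old and old rats were 25 to 28 months old. The EDL (extensor digitorum longus) is a predominantly fast-twitch muscle and the soleus a predominantly slow-twitch muscle, and RNA came from the dissected muscle, so a lower level from fewer cells of a type and from less RNA per cell cannot be told apart. Arrays carry the numbers of the labels (7 to 10 for young, 1 to 4 for old). The labels do not say whether arrays are separate animals, so p-values measure only the spread between these samples, and the number of arrays limits the precision.

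Hox genes encode homeodomain transcription factors that give cells along the body axis, and along the limb, their positional identity. Adult tissues keep part of this pattern, and the miRNAs lying between the Hox genes are transcribed from the same clusters. A miRNA pairs with messenger RNAs mainly through its seed, bases 2 to 8 from the 5′ end, and lowers their stability or translation. The miR-196 family is known in mouse for cleavage of Hoxb8 mRNA and repression of Hoxc8, and miR-10b is known for repression of HOXD10 in human breast cancer cells.

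The mature sequences are shown because the families differ by single bases, which bears on what a probe can tell apart. They are from RefSeq on build GRCr8, all 5 miRNAs searched for were matched by name, and capitals mark the seed. The first 3 are the miRNAs described here and the last 2 are the relatives of miR-196a.
rno-miR-196a: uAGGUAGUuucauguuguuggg
rno-miR-10a-5p: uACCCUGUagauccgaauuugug
rno-miR-10b: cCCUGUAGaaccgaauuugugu
rno-miR-196b: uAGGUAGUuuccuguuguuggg
rno-miR-196c: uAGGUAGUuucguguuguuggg

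The miR-196a sequence lies at chr7:135988900-135988921 on the plus strand, between Hoxc10 and Hoxc9 in the HoxC cluster. The miR-10a-5p sequence lies at chr10:81779730-81779752 on the plus strand, between Hoxb5 and Hoxb4 in the HoxB cluster. The miR-10b sequence lies at chr3:80035886-80035907 on the plus strand, within the annotated span of Hoxd4 in the HoxD cluster. Of the relatives, miR-196b lies at chr4:82661149-82661170 on the minus strand between Hoxa9 and Hoxa10, and miR-196c at chr10:81727561-81727582 on the plus strand between Hoxb13 and Hoxb9. The miR-196 seed AGGUAGU was shared by 3 of the 724 mature sequences in the RefSeq table, those of miR-196a, miR-196b and miR-196c. Counted from the 5′ end of the first-named sequence, miR-196a differs from miR-196b by A12C and from miR-196c by A12G. Aligned with an offset of 2 bases, miR-10a-5p and miR-10b differ by U12A over 21 paired bases. Because the annotated 5′ end of miR-10b lies 2 bases further in, its bases 2 to 8 (CCUGUAG) are not those of miR-10a-5p (ACCCUGU). Signal from a near-identical relative on a probe was not tested.

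Levels are given as a percentage of the array's own 75th percentile of signal, taken over 95 probes measured above background throughout. Levels of different miRNAs come from different probes and are not compared with each other. Signal was weaker on the soleus arrays. That percentile was 589 to 1864 intensity units for EDL against 290 to 681 for soleus, the number of miRNAs well above background was 83 to 138 for EDL against 59 to 86 for soleus, and the scanner software's labelling check was in range on 8 of 8 EDL arrays and 2 of 8 soleus arrays. In log2 of the percentile, old EDL differed from young EDL by 0.27 (two-sided exact permutation test, p = 0.6, adjusted over 4 comparisons 0.6) and old from young soleus by -0.27 (p = 0.343, adjusted 0.457). Soleus differed from EDL by -1.16 in young rats (exact permutation p = 0.0857, adjusted 0.171) and by -1.69 in old rats (p = 0.0286, the smallest that 4 against 4 arrays allow, adjusted 0.114). All EDL arrays were on slide 1, with young and old arrays in separate columns of it, while young soleus arrays were on slide 2 and old soleus arrays on slide 3. Slide position and age in EDL, and slide and group in each soleus comparison, therefore cannot be told apart.

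MiR-196a was lower in old than in young muscle, in EDL and in soleus. In young EDL its level was 7.70% on array 7, 7.67% on array 8, 6.17% on array 9 and 8.04% on array 10. In old EDL it was 4.64% on array 1, 4.71% on array 2, 4.69% on array 3 and 4.02% on array 4. The lowest young array, young EDL 9, stood above the highest old array, so the groups did not overlap. Group means were 7.40% ± 0.83 (SD, n = 4) in young EDL and 4.52% ± 0.33 in old EDL, a level 1.63-fold lower in old EDL (log2 difference -0.71, limma SE 0.12).

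In young soleus the level of miR-196a was 10.5% on array 7, 9.66% on array 8, 11.2% on array 9 and 10.4% on array 10. In old soleus it was 5.01% on array 1, 5.50% on array 2, 6.25% on array 3 and 7.52% on array 4. The groups again did not overlap, and the old arrays were more scattered than the young ones. Means were 10.45% ± 0.62 in young and 6.07% ± 1.09 in old soleus, 1.74-fold lower in old soleus (log2 difference -0.80, SE 0.12). The signal was well above background on all 4 arrays of every other group but on 2 of 4 old soleus arrays (3 and 4), so the old soleus mean includes 2 values not well above background.

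In both muscles this log2 difference was the lowest of the 114 tested miRNAs, and miR-196a was 1 of 114 (0.877%) whose old arrays all lay below all young arrays in both muscles. These ranks and counts are part of what led to its choice. They use levels raised to a floor (log2 -4.88), which held miR-196c, a relative of miR-196a, at a difference of 0 in EDL. The tested background was 2 lower of 114 in old EDL (1.75%) and 2 of 114 in old soleus (1.75%), with 12.3% and 3.51% called in either direction. Old arrays lay below all young arrays for 3.51% of tested miRNAs in EDL and 13.2% in soleus. The age effect in soleus minus that in EDL was -0.09 (SE 0.16), smaller than its error, and 0.877% of tested miRNAs were called for that contrast. With the other, dimmer probe of miR-196a it was 0.32 (limma SE 0.13), of opposite sign. Over 14 processing settings it ran from -0.58 to 0.40, so like age effects in the 2 muscles are not established.

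**Figure D1:**
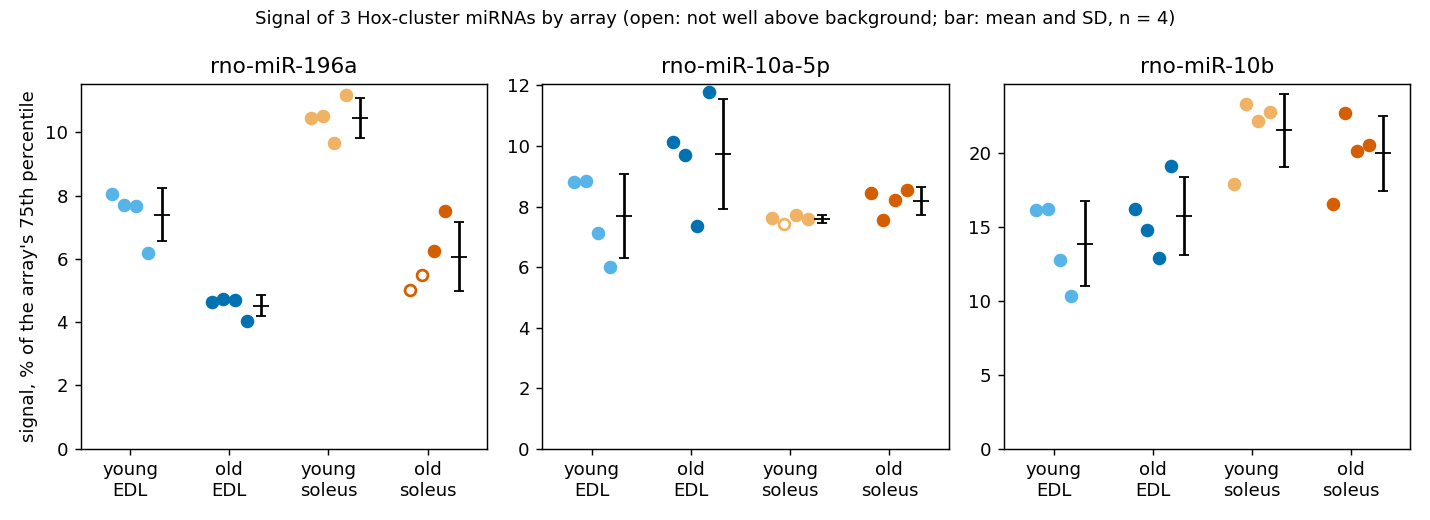
Level of miR-196a, miR-10a-5p and miR-10b on each of the 16 arrays, as a percentage of the array's 75th percentile of signal, with the mean and SD of each group of 4 and open points for arrays where the probe was not well above background. The old EDL points of miR-196a lie between 4.02% and 4.71%, below all young EDL points, and the old soleus points lie between 5.01% and 7.52%, below all young soleus points.

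MiR-10a-5p did not share the age difference of miR-196a. Its level in young EDL was 8.83% on array 7, 7.14% on array 8, 6.00% on array 9 and 8.81% on array 10, and in old EDL 10.1%, 9.69%, 7.34% and 11.8% on arrays 1 to 4. Old EDL 3 lay within the young range and the other old arrays above it. The means were 7.69% ± 1.38 and 9.74% ± 1.83, a log2 difference of 0.34 (SE 0.14), and 0.22 without young EDL 9. In soleus the young arrays read 7.41%, 7.73%, 7.60% and 7.63% on arrays 7 to 10 and the old arrays 8.46%, 7.54%, 8.21% and 8.55% on arrays 1 to 4. Young soleus was the tightest group of this miRNA and overlapped old soleus, with means of 7.59% ± 0.13 and 8.19% ± 0.45 and a log2 difference of 0.11 (SE 0.14). Young soleus 7 was the only array of the 16 on which this probe was not well above background.

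MiR-10b gave overlapping age groups in both muscles and was well above background on all 16 arrays. Young EDL arrays 7 to 10 read 16.2%, 12.8%, 10.3% and 16.2%, and old EDL arrays 1 to 4 read 16.2%, 14.8%, 12.9% and 19.2%. The means were 13.9% ± 2.86 and 15.8% ± 2.64, a log2 difference of 0.20 (SE 0.16). Young soleus arrays 7 to 10 read 23.4%, 22.2%, 22.8% and 17.9%, and old soleus arrays 1 to 4 read 16.6%, 22.7%, 20.1% and 20.5%. Here the means were 21.6% ± 2.48 and 19.99% ± 2.54, a log2 difference of -0.11 (SE 0.16). For miR-10a-5p and miR-10b the age effect in soleus minus that in EDL was -0.23 (SE 0.20) and -0.30 (SE 0.23).

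The comparison of soleus with EDL asks how the muscles differ at one age, and it is tested here over all 114 miRNAs. No value of this comparison is named in the rule that chose the miRNAs, though all results were open to view when it was made. MiR-196a was 1.42-fold higher in young soleus than in young EDL (log2 difference 0.50, SE 0.12, limma adjusted p = 0.00372) and 1.33-fold higher in old soleus than in old EDL (0.41, SE 0.12, adjusted p = 0.00892), and all 4 soleus arrays lay above all 4 EDL arrays at each age. On old soleus 1 and 2 its signal was not well above background and lay below the weakest detected signal of those arrays, so the old soleus mean, its fold and the lack of overlap in old rats rest partly on values with no firm level. MiR-10b was 1.57-fold higher in young soleus than in young EDL (0.65, SE 0.16, adjusted p = 0.00587), with no overlap. In old rats the difference of miR-10b was 0.35 (SE 0.16, 95% interval -0.01 to 0.70, adjusted p = 0.0894), and the groups overlapped. MiR-10a-5p differed by 0.00 in young rats (95% interval -0.30 to 0.30, adjusted p = 1) and by -0.23 in old rats (-0.53 to 0.07, adjusted p = 0.184). In young rats it was called higher in soleus with labelling spike-in scaling (0.61, adjusted p = 0.00316) and lower without scaling (-1.13, 0.0424) or with the percentile over all probes (-1.02, 0.0479). In old rats it was called lower in those last settings (-1.92, adjusted p = 0.00143, and -1.31, 0.0121).

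The 2 of 3 called in young rats stand beside 41.2% of all tested miRNAs called in that comparison (17.5% higher in soleus), and the 1 of 3 called in old rats beside 53.5% (21.1% higher). Groups that did not overlap, with soleus higher, made up 15.8% of tested miRNAs in young and 21.9% in old rats. The directions, sizes and some of the calls depend on the processing. With labelling spike-in scaling the differences were larger, at 1.12 in young and 0.76 in old rats for miR-196a and 1.26 and 0.70 for miR-10b. The call of miR-196a in old rats was lost with array brightness as a covariate (limma adjusted p = 0.0673), with no filter on dim miRNAs (0.0501) and with normexp background correction (0.957), and its call in young rats with quantile normalization (0.130). The call of miR-10b in young rats was lost with normexp (0.769) and without young soleus 7 and 8 (0.0695). In old rats miR-10b, not called here, was called higher in soleus in 7 other settings, among them without old EDL 4 (limma adjusted p = 0.0433). Some of these settings use its other probe, which was often at the lower limit of signal in EDL. Without scaling, soleus minus EDL was -0.65 in young and -1.23 in old rats for miR-196a and -0.50 and -1.34 for miR-10b, while the median of all tested miRNAs was itself at -0.91 in young and -1.56 in old rats. With the percentile taken over all probes it was -0.51 and -0.65 for miR-196a and -0.37 and -0.73 for miR-10b, against medians of -0.85 and -1.04. For miR-196a it was also -0.05 in young rats with normexp background correction and -0.14 in old rats with quantile normalization. Relative to the median of all tested miRNAs, miR-196a lay 0.26 to 0.80 higher in young and 0.035 to 1.04 higher in old rats over the 15 settings other than those leaving out a single array, and the 0.035, from quantile normalization, was within its SE of 0.23. For miR-10b the ranges were 0.29 to 0.95 and 0.22 to 0.83.

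**Figure D2:**
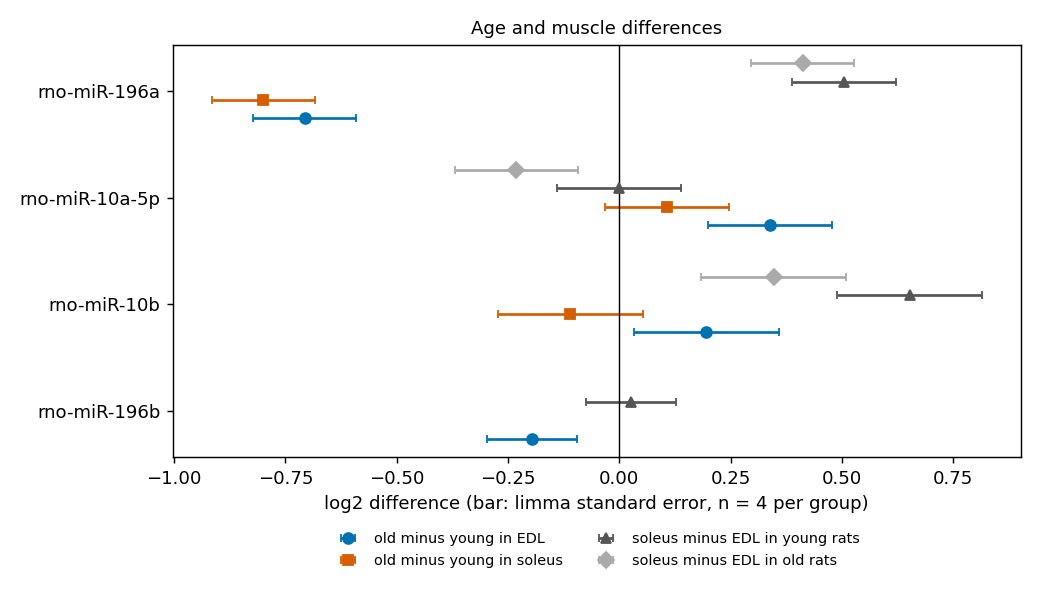
Log2 differences with limma standard errors (n = 4 per group) for the 3 miRNAs and miR-196b, with old minus young in each muscle and soleus minus EDL at each age, leaving out the comparisons of miR-196b with old soleus, where it was never well above background. MiR-196a lies at -0.71 and -0.80 for age, and at 0.50 and 0.41 for muscle, where the sign turns to -0.65 and -1.23 without scaling between arrays.

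**Figure D3:**
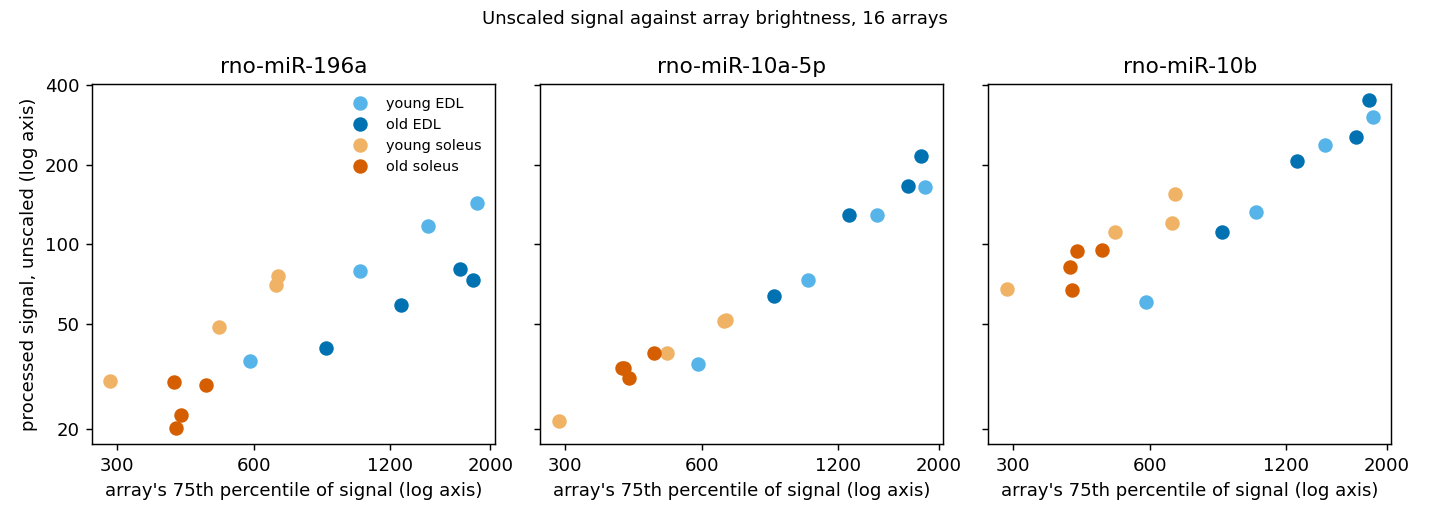
Unscaled processed signal of each miRNA against the array's 75th percentile of signal, both on log axes, 1 point per array coloured by group. The signal of each miRNA follows array brightness, and old EDL points of miR-196a lie below young EDL points at a like percentile.

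Ratios between miRNAs on the same array do not depend on the scaling factor. The SEs of ratio differences come only from the spread within the 2 groups compared, not from limma. The log2 ratio of miR-196a to miR-10a-5p changed between young and old EDL by -1.05 (SE 0.20) and between young and old soleus by -0.91 (SE 0.13). The ratio of miR-196a to miR-10b changed by -0.90 (SE 0.19) in EDL and by -0.69 (SE 0.15) in soleus. None of these 4 pairs of age groups overlapped. These ratios carry the age values of miR-196a that were known when it was chosen, and in soleus the 2 arrays on which it was not well above background, so they are a description only. The ratio of miR-10a-5p to miR-10b differed with age by 0.14 (SE 0.05) in EDL and 0.22 (SE 0.16) in soleus, with overlap in both.

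Between muscles, the ratio of miR-10a-5p to miR-10b was lower in soleus by -0.65 (SE 0.10) in young rats and -0.58 (SE 0.13) in old rats on the log2 scale, with no overlap at either age. The ratio of miR-196a to miR-10a-5p differed by 0.50 (SE 0.09) in young rats, with no overlap, and by 0.64 (SE 0.22) in old rats, with overlap. The ratio of miR-196a to miR-10b differed by -0.15 (SE 0.13) and 0.06 (SE 0.21), with overlap at both ages.

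Each miRNA was read by 2 probes of 10 spots, and the brighter is used above. The SEs in this paragraph come only from the spread within the 2 groups compared, so they are not like the limma SEs above. The other probe of miR-196a gave an age difference of -0.85 (SE 0.13) in EDL and -0.52 (SE 0.05) in soleus, with no overlap in either muscle. Its limma SE was 0.09 in each muscle. It too was not well above background on old soleus 1 and 2, so its soleus values carry the same limit. It differed between muscles by 0.30 (SE 0.10) in young rats, with overlap, and by 0.62 (SE 0.09) in old rats, without. The other probe of miR-10a-5p gave 0.34 (SE 0.20) for age in EDL and 0.23 (SE 0.11) in soleus, with overlap in both. In soleus it was well above background on 3 of 8 arrays, all of them young, so its soleus value is not firm. On young EDL 9 it was neither well above background nor above the floor. The other probe of miR-10b was at the floor, the level to which lower values were raised, on 7 of 8 EDL arrays. It was nevertheless well above background on 7 of 8 EDL arrays. Raising these values removed their order, so no age difference in EDL is read from this probe. The median spread between spots of one probe on one array was 6.80% to 15.1% over the 6 probes (coefficient of variation).

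Of the 11 miRNAs on the array that lie in the Hox clusters, 5 were tested, and the 6 others (miR-10a-3p, miR-10b*, miR-196a*, miR-196b*, miR-196c* and miR-615) were well above background on 0 arrays. Between the muscles 2 of the 5 were higher in young soleus (miR-196a and miR-10b, against 17.5% of all tested miRNAs) and 1 in old soleus (miR-196a, against 21.1%), under the scaling used here. MiR-196b, which shares the miR-196a seed, read 4.52% to 5.50% in young EDL and 3.90% to 4.50% in old EDL. These groups did not overlap, but the log2 difference of -0.20 (SE 0.10) did not pass the test (limma adjusted p = 0.290). In soleus miR-196b read 4.29% to 5.80% in young and 4.18% to 5.48% in old rats, and it was well above background on 2 of 4 young and 0 of 4 old arrays, so no difference is given there. MiR-196c was at the floor on all 8 EDL arrays, although well above background on 3 young and 2 old of them, and on 0 soleus arrays, so no fold is given. Before the floor was applied it read 1.92% to 2.37% in young EDL and 1.19% to 1.44% in old EDL, with no overlap. These include values not well above background. A lower level in old EDL was thus not particular to miR-196a, and the fit could not show it for miR-196c.

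By Pearson correlation of log2 level over the 16 arrays, among 75 miRNAs rarely at the floor, the patterns most like miR-196a were those of miR-345-5p (r = 0.71, Spearman rho = 0.75), miR-23b (0.68, rho = 0.69) and miR-290 (0.66, rho = 0.56). With group means removed, these fell to 0.08, 0.32 and 0.03. Their age differences were -0.14, -0.05 and -0.03 in EDL, against -0.71 for miR-196a, and -0.20, -0.15 and -0.46 in soleus. MiR-290 lay near the floor of -4.88 in EDL, with mean log2 levels of -4.72 in young and -4.75 in old. For miR-10a-5p the most alike were let-7a (r = 0.88), let-7f (0.88) and miR-146a (0.86), and with group means removed they stayed at 0.82, 0.87 and 0.82. For miR-10b they were miR-23a (0.83), miR-23b (0.83) and miR-24 (0.80), and 0.60, 0.65 and 0.45 with group means removed. The points share the arrays, their brightness and the scaling, and no p is given.

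Markers of the cell types that whole muscle holds were read on the same arrays. The 5 muscle fibre miRNAs fixed as markers (miR-1, miR-133a, miR-133b, miR-206 and miR-499) were all tested, with a summed level of 4671% to 5979% in young EDL, 5399% to 6083% in old EDL, 6810% to 7980% in young soleus and 5437% to 6436% in old soleus. The 5 fibroblast and mesenchyme miRNAs (miR-199a-3p, miR-199a-5p, miR-214, miR-140* and miR-21) summed to 56.3% to 87.9%, 65.3% to 107%, 37.6% to 48.1% and 54.1% to 82.4% in the same order. In old EDL 2 of these 5 were higher, beside 12 of all 114, while the median of the 5 was -0.14 on the log2 scale, and in old soleus 1 was higher, beside 2 of 114, with a median of 0.46. In soleus against EDL 4 of the 5 were lower in young rats, beside 27 of 114, and 2 in old rats, beside 37 of 114. MiR-199a-5p was well above background on 2 of 4 arrays in each soleus group. For miR-140* it was 2 young and 1 old soleus array, and for miR-214 3 of 4 young ones. The soleus values of this list thus include some not well above background. Both smooth muscle miRNAs, miR-143 and miR-145, were lower in soleus than in EDL at each age, beside 27 of 114 in young and 37 of 114 in old rats. MiR-145 was well above background on 3 of 4 young and 1 of 4 old soleus arrays. Its old difference therefore rests mostly on values not well above background. Never well above background were miR-142-5p of leukocytes, miR-144 of erythroid cells, miR-124 and miR-9 of neural cells and miR-122 of liver. Other members of these lists were detected. Leukocyte miR-223 and miR-150 and neural miR-128 were well above background on all 4 arrays of each group. Erythroid miR-451 was so on 2 young EDL, 4 old EDL, 0 young soleus and 2 old soleus arrays, and leukocyte miR-142-3p on 1 old EDL array. With age in soleus, and between the muscles of young rats, the ranges of both sums did not overlap. There the fibre sum moved the same way as miR-196a and the fibroblast sum the opposite way. With age in EDL, where miR-196a was also lower, and between the muscles of old rats, the ranges of both sums overlapped. Of the 5 fibre miRNAs, 2 were called higher and 2 lower in soleus than in EDL at each age. All 114 tested miRNAs gave 20 higher and 27 lower in young and 24 and 37 in old rats. MiR-499 is also a slow fibre marker. It read 1.08% to 3.71% in young EDL, 1.90% to 3.59% in old EDL, 39.6% to 62.5% in young soleus and 27.7% to 39.4% in old soleus. In young EDL it was well above background on 2 of 4 arrays. The fibre sum thus mixes miRNAs that differ in opposite directions between the muscles, and is not a measure of fibre amount alone. With age, 1 of the 5 was called in EDL (higher), beside 14 of 114, and 0 in soleus, beside 4. The part of either sum in the differences of miR-196a was not tested.

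MiR-196a was lower in old muscle in all 14 processing settings of the age comparisons, but some settings could not change its value. Log2 differences were -1.02 to -0.44 in EDL and -1.22 to -0.14 in soleus. The lower floor, both changes of the dim filter and the fit to only the groups compared left -0.71 and -0.80 unchanged. Leaving out young soleus arrays could not change the EDL value. The value nearest 0 in soleus came from normexp background correction, with an SE of 0.45. In EDL the same correction gave -0.54 (SE 0.45), when the median of all tested miRNAs was at -0.50. The EDL value nearest 0, -0.44, came from the setting without scaling (SE 0.39). Leaving out any single array gave -0.79 to -0.65 in EDL and -0.91 to -0.71 in soleus.

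**Figure D4:**
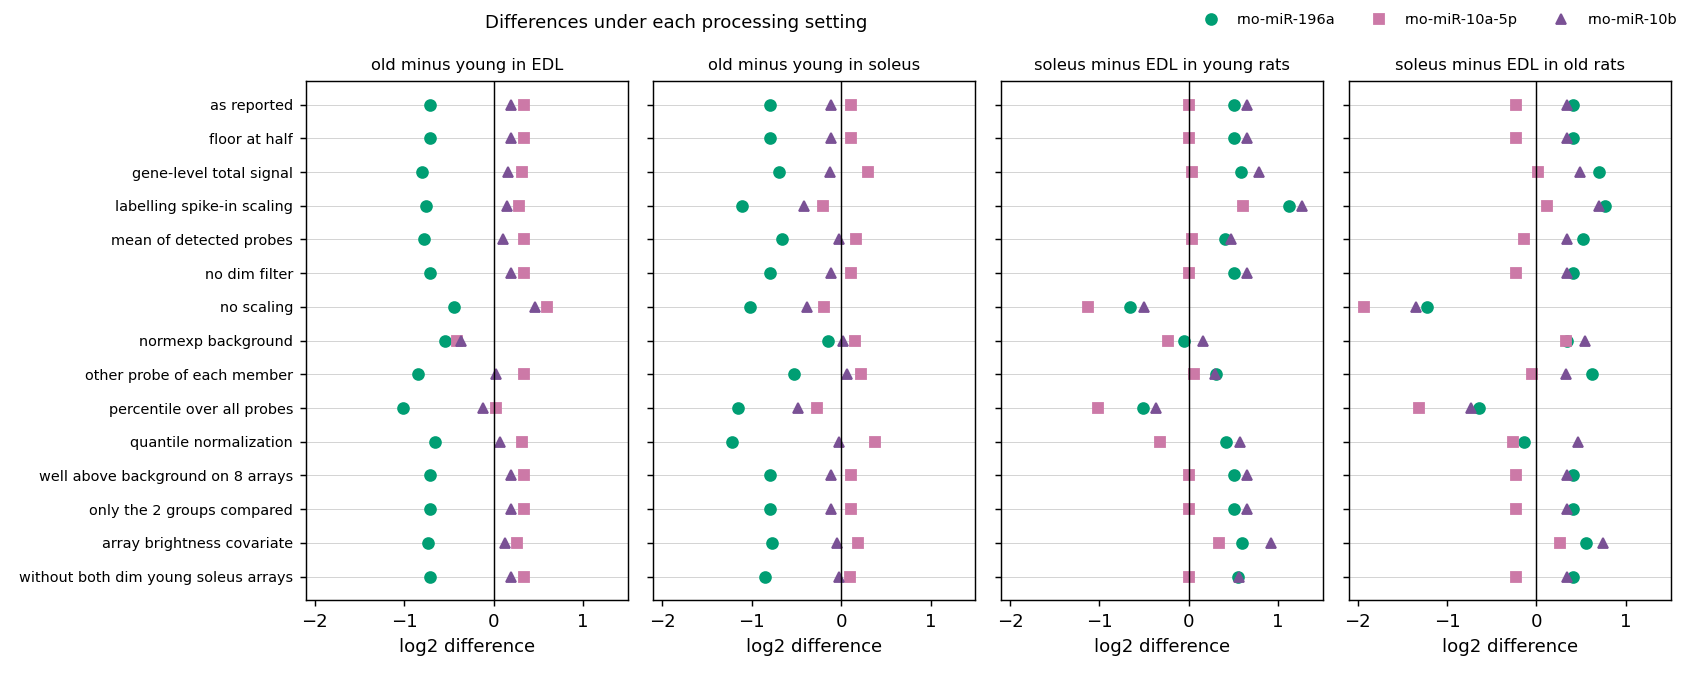
Log2 difference of each miRNA under each processing setting, with old minus young in EDL and in soleus and soleus minus EDL in young and old rats. MiR-196a lies left of 0 in every setting shown of the age panels, and its muscle differences turn sign without scaling (-0.65 and -1.23), with the percentile over all probes (-0.51 and -0.65), with normexp in young rats (-0.05) and with quantile normalization in old rats (-0.14).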

How the data were processed

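Per the file headers, the deposited spot intensity values came from the authors' run of Agilent Feature Extraction 10.7.3.1, with protocol miRNA_107_Sep09 and a grid annotated on rn4. These are processed signals with no scaling between arrays, and the authors' series table holds the same values. Per the file headers, 0 or 1 flags mark spots well above background. Per the labels' protocols, 0.1 µg RNA was labelled with Cy3. Control spots and outlier spots (3.03%) were left out, spots of a probe averaged, each array divided by its 75th percentile over 95 probes, values raised to a floor of 0.03389 (log2 -4.88), converted to log2, and the brightest probe taken for each miRNA. This floor exceeded the weakest detected signal of each EDL array and fell short of that of each soleus array, so dim detected signal was raised to it only in EDL. A miRNA was tested if well above background on 4 or more of 16 arrays (114 of 677). Limma 3.58.1 (R 4.3.3) was fitted to all 4 groups, two-sided, with Benjamini-Hochberg adjustment over the 114 at 0.05. The fit was tested on simulated data. Python 3.11.15, pandas 2.3.3, scipy 1.17.1, numpy 2.4.6 and matplotlib 3.10.9 were also used.

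The miRNAs and all lists were chosen with earlier results of these data known. Named miRNAs are the 3 members, other Hox-cluster miRNAs and, for each member, the 3 with the highest Pearson r. Alternatives covered scaling, background, floor, probe rule, dim filter, samples in the fit, array brightness as a covariate, replicate numbers as a block and leaving out arrays. Another 3 were chosen after seeing the data, which were the other probe of each member, the software's gene-level total signal and leaving out young soleus 7 and 8.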

Additional observations from a re-analysis of the deposited data

Results flagged for a closer look

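The level of miR-196a on old EDL 4 (4.02%) was below the other old EDL arrays (4.64% to 4.71%), which lay close together. On the log2 scale its gap to the nearest array was 0.898 of the group's range, past Dixon's critical value for 4 samples. Of 18 groups of values checked this was the one past it, and chance gives about 1 in 20. Without old EDL 4 the age difference of miR-196a in EDL was -0.65. The other probe of miR-196a read 3.59% on old EDL 4, against 4.85%, 4.17% and 3.92% on old EDL 1 to 3.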

How the results depend on the processing

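Values are log2 differences and counts are of miRNAs past an adjusted p of 0.05 in limma. The age effect in soleus minus that in EDL is called the interaction. The 114 tested miRNAs gave 14, 4, 1, 47 and 61 calls for EDL age, soleus age, the interaction, young muscle and old muscle. At an unadjusted p under 0.05 these were 26, 35, 13, 58 and 67. The causes of the shifts below were not tested, except that fewer arrays or miRNAs follow from a setting's construction.

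Without scaling, the age counts were 0 in EDL, 0 in soleus and 0 for the interaction, and the old muscle count was 93 (1 higher, 92 lower, against 24 and 37), with 2 higher and 61 lower in young rats (against 20 and 27). The medians of all tested miRNAs were then 0.28 for EDL age, -0.17 for soleus age, -0.91 for young and -1.56 for old muscle. MiR-196a read -0.44 for EDL age, -1.02 for soleus age, -0.58 for the interaction, -0.65 for young and -1.23 for old muscle. MiR-10a-5p read -0.19 for soleus age, -0.79 for the interaction, -1.13 for young muscle (adjusted p = 0.0424) and -1.92 for old muscle (0.00143). MiR-10b read -0.38 for soleus age, -0.84 for the interaction, -0.50 for young and -1.34 for old muscle.

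With the percentile over all probes, the counts for EDL age, soleus age and the interaction were 0, 0 and 0, with muscle splits of 2 higher and 51 lower in young and 1 and 62 in old rats, at medians of -0.23, -0.24, -0.85 and -1.04 in the 2 age and 2 muscle comparisons. MiR-196a read -1.02 and -1.15 for age and -0.51 and -0.65 for muscle. MiR-10a-5p read 0.029 and -0.27 for age and -1.02 (adjusted p = 0.0479) and -1.31 (0.0121) for muscle. MiR-10b read -0.11 and -0.48 for age and -0.37 for young muscle.

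With labelling spike-in scaling, the counts were 8 for EDL age, 45 for soleus age (1 higher, 44 lower) and 31 for the interaction, with muscle splits of 61 higher and 3 lower in young and 32 and 17 in old rats, and the young muscle median was 0.32. MiR-196a read -1.10 for soleus age and -0.35 for the interaction. MiR-10a-5p read -0.20 for soleus age, -0.49 for the interaction and 0.61 for young muscle (adjusted p = 0.00316). MiR-10b read -0.42 for soleus age, -0.56 for the interaction and 0.70 for old muscle.

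With normexp background correction the counts were 1, 0, 7 and 5 for EDL age, soleus age, old muscle and young muscle, and the EDL age median was -0.50. MiR-196a read -0.54 and -0.14 for age, 0.40 for the interaction, -0.052 for young muscle and 0.34 for old muscle (adjusted p = 0.957). MiR-10a-5p read -0.41 for EDL age and 0.57 for the interaction, and miR-10b -0.36 for EDL age, 0.38 for the interaction and 0.16 for young muscle. With quantile normalization the counts were 9 for soleus age and 3 for the interaction, with splits of 7 higher and 10 lower for EDL age, 18 and 47 in young muscle. MiR-196a then read -1.22 for soleus age, -0.56 for the interaction, 0.42 for young muscle (adjusted p = 0.130) and -0.14 for old muscle, miR-10a-5p 0.37 for soleus age and 0.055 for the interaction, and miR-10b 0.47 for old muscle.

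With array brightness as a covariate the counts were 16 for soleus age, 2 for the interaction and 24 for old muscle, miR-10a-5p read 0.19 for soleus age, miR-196a 0.55 (adjusted p = 0.0673) and miR-10b 0.74 (0.0456) for old muscle. Gene-level total signal gave 5 and 13 age calls, 0.30 for miR-10a-5p in soleus age, interactions of 0.11 (miR-196a) and -0.023 (miR-10a-5p), and 0.49 for miR-10b in old muscle. The mean of detected probes gave 1 call for soleus age, an interaction of 0.12 for miR-196a and 0.34 (adjusted p = 0.0139) for miR-10b in old muscle. The other probe gave -0.52 and 0.23 for miR-196a and miR-10a-5p in soleus age, interactions of 0.32 (miR-196a) and 0.039 (miR-10b), and 0.33 for miR-10b in old muscle (adjusted p = 0.00332). The 0.23 is not firm, because that probe of miR-10a-5p was well above background on 3 of 8 soleus arrays, all of them young. For miR-10b the values of the other probe are not firm. Its other probe was at the floor on 7 of 8 EDL arrays, 3 of them old, and well above background on 1 of 4 old soleus arrays. The mean of detected probes includes it, so the 0.34 of miR-10b in old muscle carries the same limit. Without a dim filter there were 7 and 1 age calls, and miR-196a in old muscle was 0.41 at an adjusted p of 0.0501. A filter of 8 arrays gave 12 calls for soleus age, and a floor 0.5 times as high gave 8 and, for the interaction, 2. Without young soleus 7 and 8, added after seeing the data, there were 19 calls for soleus age and 12 for the interaction, and miR-10b in young muscle was 0.57 (adjusted p = 0.0695).

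Leaving out single arrays gave 7 to 16 calls for EDL age (7 without young EDL 7, young EDL 8, old EDL 1 or old EDL 4), 1 to 26 for soleus age (26 without young soleus 7), 1 to 9 for the interaction (9 without young soleus 7), 40 to 54 for young and 52 to 64 for old muscle. The muscle calls of miR-196a and of miR-10b in young rats remained in each (adjusted p at most 0.0321 and 0.0191). In old rats miR-10b ranged from 0.26 to 0.45 and passed without old EDL 4 (0.0433), and miR-10a-5p from -0.36 to -0.13 and passed without old EDL 3 (0.0232). MiR-10b ranged from 0.06 to 0.29 for EDL age and from -0.20 to -0.02 for soleus age.

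With the replicate block, pairing EDL and soleus arrays of one age by number, there were 39 and 61 muscle calls and 2 for the interaction, and miR-196a passed at adjusted p of 0.0345 and 0.0489 and miR-10b in young rats at 0.0318. Same-numbered arrays deviated together with correlations of -0.61 to 0.65, and 1 of 8 correlated best with its own number, so the numbers are not taken as pairs. Slide as a block was not run, because no slide holds both groups of a comparison apart from EDL age, which lies on 1 slide. The likeness r under the percentile over all probes was 0.81 to 0.99.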
